A study of Homo sapiens with 22 samples.

Results

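Of the open chromatin regions listed in 2 or more libraries of control MDA-MB-231 cells, 512 overlapped no peak listed after LOXL2 knockdown. They were chosen by the deposited peak lists alone: overlapping ATAC-seq peaks of the 3 shControl libraries were merged into 50651 regions, 34134 of these held a peak from 2 or more libraries, and 512 (1.5%) of those overlapped no peak of any of the 3 shLOXL2 libraries by as little as 1 bp. The remaining 33622 regions of 2 or more shControl libraries are called the shared regions below. The mirror set, built the same way with the groups exchanged, held 7263 regions listed only in shLOXL2, which was 15.1% of the 47964 shLOXL2 regions of 2 or more libraries. Because the peak lists chose all these sets, their scores, widths and numbers are given as descriptions, with no test.

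MDA-MB-231 is an established human line from a triple-negative breast cancer with a mesenchymal character. Both groups carried a short hairpin RNA, either the control hairpin shControl or shLOXL2 against LOXL2, which encodes lysyl oxidase-like 2, an amine oxidase known for crosslinking collagen and elastin and also reported in the nucleus. The ATAC-seq cells are labelled as infected with the hairpin, whereas the RNA-seq labels give it as the treatment, and the number of hairpin sequences or clones is not given in the sources used here. Each assay had 6 libraries, 3 per group, and nothing in the labels says whether the replicates came from separate cultures, so p-values measure the spread between these libraries, which may be technical.

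ATAC-seq uses the Tn5 transposase, which cuts DNA where nucleosomes leave it accessible, so that peaks of cuts mark promoters, enhancers and insulators. Promoter peaks tend to be strong and shared between conditions, whereas distal peaks, many of them enhancers, depend more on which transcription factors a cell contains. In mesenchymal breast cancer cells, distal open regions often carry sites for AP-1, the FOS and JUN dimers, and for TEAD factors, the DNA-binding partners of the Hippo pathway effectors YAP and TAZ. A gene can respond to a distant element that is not nearest to it, and a nearest gene is therefore a label of position.

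The sequences of 6 regions are printed here because they carry the results that follow. The first 4 are among the 10 highest-scoring regions found in all 3 shControl libraries, the fifth is the closer of a pair upstream of TGFBR2, and the last lies just before the start of COL6A1. Each run is 300 bases of the GRCh37 plus strand centred on the region, named by its nearest protein-coding gene, and capitals mark every match on either strand to the AP-1 word TGANTCA or the TEAD word GGAATG.
CTDSPL, chr3:37950831-37951130: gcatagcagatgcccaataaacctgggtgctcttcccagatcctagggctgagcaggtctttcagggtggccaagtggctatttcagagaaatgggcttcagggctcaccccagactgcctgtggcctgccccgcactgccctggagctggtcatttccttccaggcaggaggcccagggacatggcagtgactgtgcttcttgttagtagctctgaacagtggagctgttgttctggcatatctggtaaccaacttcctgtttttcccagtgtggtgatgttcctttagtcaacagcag
NR2F2, chr15:96313415-96313714: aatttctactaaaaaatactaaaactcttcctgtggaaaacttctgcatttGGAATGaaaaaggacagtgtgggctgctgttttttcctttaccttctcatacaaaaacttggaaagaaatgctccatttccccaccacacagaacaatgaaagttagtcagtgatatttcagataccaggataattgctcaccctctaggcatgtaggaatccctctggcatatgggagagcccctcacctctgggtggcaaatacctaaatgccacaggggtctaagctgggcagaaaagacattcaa
MDFIC2, chr3:70102472-70102771: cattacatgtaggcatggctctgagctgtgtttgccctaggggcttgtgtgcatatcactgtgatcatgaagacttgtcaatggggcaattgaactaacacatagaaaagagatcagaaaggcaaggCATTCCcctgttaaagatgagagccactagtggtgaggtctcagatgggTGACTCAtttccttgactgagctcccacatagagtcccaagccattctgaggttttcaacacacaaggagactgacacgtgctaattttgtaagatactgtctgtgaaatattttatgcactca
EDN1, chr6:12203309-12203608: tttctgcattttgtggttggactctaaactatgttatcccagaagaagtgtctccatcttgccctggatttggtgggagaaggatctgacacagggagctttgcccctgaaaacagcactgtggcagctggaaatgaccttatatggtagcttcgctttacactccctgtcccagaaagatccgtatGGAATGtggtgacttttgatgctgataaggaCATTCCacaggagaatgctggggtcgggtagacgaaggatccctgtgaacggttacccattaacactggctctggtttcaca
TGFBR2, chr3:30534256-30534555: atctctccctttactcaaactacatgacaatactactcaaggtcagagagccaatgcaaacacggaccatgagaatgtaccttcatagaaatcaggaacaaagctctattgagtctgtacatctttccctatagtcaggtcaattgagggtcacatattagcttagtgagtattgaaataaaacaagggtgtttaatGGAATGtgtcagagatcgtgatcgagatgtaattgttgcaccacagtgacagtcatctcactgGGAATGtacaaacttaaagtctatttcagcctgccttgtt
COL6A1, chr21:47401182-47401481: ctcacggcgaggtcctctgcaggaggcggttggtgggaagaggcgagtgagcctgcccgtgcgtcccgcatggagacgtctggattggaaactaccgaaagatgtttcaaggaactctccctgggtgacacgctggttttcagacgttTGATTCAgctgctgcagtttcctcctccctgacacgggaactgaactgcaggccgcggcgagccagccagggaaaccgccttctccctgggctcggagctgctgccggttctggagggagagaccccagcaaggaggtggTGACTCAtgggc
The CTDSPL sequence held neither word, the NR2F2 sequence 1 TEAD match, and the MDFIC2 sequence 1 match to each word. The EDN1 and TGFBR2 sequences each held 2 TEAD matches and no AP-1 match. The COL6A1 sequence was the reverse, with 2 AP-1 matches and no TEAD match, but its window is wider than the region (chr21:47401200-47401464), and only 1 of the 2 matches lies inside the region. In the other 5 every match lies inside. None of the 6 windows contained annotated exon bases. A match is a run of letters and says nothing by itself about a factor being there.

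Regions listed only in shControl were mostly weak peaks. The authors gave each peak a score, and here it serves to place a peak within its own list, as a percentile that gives the share of peaks in that list with a lower score. In shControl replicate 1, 166 of the regions had a peak, with scores from 22 to 133 and a median percentile of 15.3 (quartiles 6.15 and 29.7). In replicate 2, 487 had a peak, with scores from 20 to 224 and a median percentile of 21.2 (quartiles 12.2 and 36.0). In replicate 3, 423 had a peak, with scores from 20 to 234 and a median percentile of 15.6 (quartiles 7.28 and 27.5). The lowest score in each list was 20, so the 3 ranges began at or just above the bottom of the lists. The same medians for the shared regions were 53.3, 62.8 and 56.4. The best-placed regions ranked 7744th, 11562nd and 5731st in the 3 lists, and 97.0%, 89.7% and 95.5% of them lay below the median score of their list.

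The share of regions listed only in shControl fell with each step up in score. Of the 715 regions with a mean score percentile below 10, 107 (15%) were listed only in shControl, against 166 (6.72%) between 10 and 20 and 119 (3.13%) between 20 and 30. The share was 0.302% (13 regions) between 50 and 60, and no region above the 80th percentile was listed only in shControl. In all, 392 (76.6%) lay below the 30th percentile, against 19.6% of the shared regions, and 16 (3.12%) lay at or above the 50th, against 53.6%. Of those 16, 12 lay in introns, 3 between genes and 1 in an exon, and 5 were found in all 3 libraries.

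**Figure D1:**
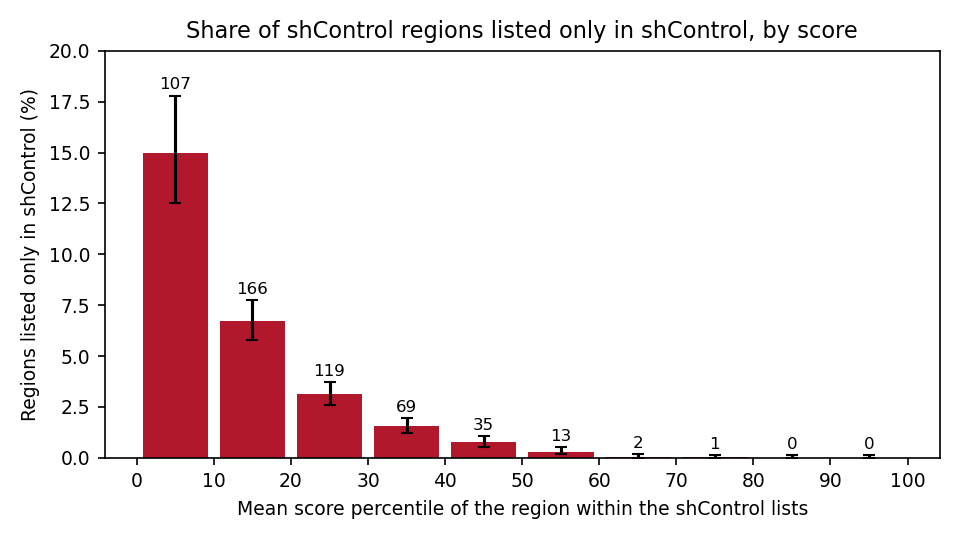
Share of shControl regions of 2 or more libraries that were listed only in shControl (percent, vertical axis, with 95% Wilson intervals) by mean score percentile within the shControl lists (horizontal axis, bins of 10). The share runs from 15% in the lowest bin to 0 in the 2 highest bins.

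Few of the regions were found in every control library. The pair of replicates 2 and 3 supplied 346 of them (67.6%), replicates 1 and 2 supplied 89 (17.4%), replicates 1 and 3 supplied 25 (4.88%), and 52 (10.2%) were found in all 3. Of the shared regions, 68.9% were found in all 3 shControl libraries. Of the mirror set, 2778 (38.2%) were found in all 3 shLOXL2 libraries. The number of regions thus depended on single lists, in part by the form of the rule. With a shControl list left out, both remaining ones had to hold a peak. The rule then gave 84 regions without shControl replicate 2 and 142 without shControl replicate 3. Leaving out a shLOXL2 list can only add regions, and without shLOXL2 replicate 3 the rule gave 1033. The regions were narrow, from 177 to 1147 bp with a median of 359 bp, against 605 bp for the shared regions and 326 bp for the mirror set, and they covered 200.3 kb together.

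The size of the lists differed between the groups. The shControl lists held 27099, 45416 and 36967 peaks and the shLOXL2 lists 47232, 49614 and 55592, so that each shLOXL2 list was longer than each shControl list, and the read depth behind the lists is unknown. With only the 27099 best-scoring peaks of every library, 1946 regions were listed only in shControl and 2093 only in shLOXL2, and 88 of the 512 were among those 1946. With peaks above each list's median score, the numbers were 375 and 4008, and 11 of the 512 were among the 375. The number of regions listed in 1 group only, and which regions they were, therefore moved with the number of peaks compared. The part of list length in the difference was not tested beyond these values.

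Some regions met the rule by a few bases. The closest shLOXL2 peak lay a median of 9.16 kb away (quartiles 3.16 and 21.4 kb), 66 of the regions had one less than 1 kb away and 33 less than 500 bp away. Just inside the rule were chr11:101316807-101317289, which touched a shLOXL2 peak without sharing a base, chr6:138129973-138130252 at 4 bp and chr4:166265080-166265440 at 6 bp, with mean score percentiles of 13.5, 9.74 and 9.02. Just outside were chr1:212873455-212873821, which shared 2 bp with a shLOXL2 peak, and a region that shared 8 bp, with percentiles of 2.13 and 2.99. All 5 lay low in their lists, and those just outside lay lowest. Shared regions that met a peak in 1 shLOXL2 list (994) had a median percentile of 21.5, those with peaks in 2 lists (2372) 27.1 and those with peaks in all 3 (30256) 56.4. The regions listed only in shControl, at 18.5, came next below the first of these in that order.

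The highest-scoring regions found in all 3 libraries lay in introns or between genes. The first, chr3:37950742-37951219, lies in an intron of CTDSPL, a small phosphatase gene, and scored 70, 224 and 154 in replicates 1, 2 and 3 (mean percentile 60.1). The region chr15:96313326-96313804 lies in an intron of a long noncoding RNA gene 555 kb upstream of NR2F2, a nuclear receptor gene, and scored 67, 215 and 112. The region chr7:18838088-18838619 lies in an intron of HDAC9, a histone deacetylase gene, with the start of TWIST1 318640 bp away, and scored 67, 154 and 122. In each of these the score was lowest in replicate 1, whose list is the shortest. The region chrX:107556267-107556828 lies in an intron of COL4A6, a basement membrane collagen gene, and scored 52, 171 and 131. The region chr6:12203271-12203647 lies between genes 86947 bp upstream of EDN1, which encodes the vasoconstrictor peptide endothelin-1, and scored 50, 144 and 108. In 3 of the 10 highest-scoring regions replicate 1 was not the lowest, as in chr1:208020465-208020678, nearest to CD34, which scored 133, 100 and 107. The highest mean percentile among all 512, 71.0, belonged to chr1:220950165-220950466 in an intron of MTARC2, which scored 145 and 234 in replicates 2 and 3 and had no peak in replicate 1.

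Promoters were uncommon among the 512 regions. Within 1 kb of the start of an annotated protein-coding or long noncoding RNA gene lay 39 of them (7.62%, 95% Wilson interval 5.62 to 10.2, counting error only), against 30.3% of the shared regions and 8.37% of the mirror set. This share moved with the peaks compared: the regions listed only in shControl held promoters in 22.7% with peaks above each list's median score and in 27.4% with an equal number of peaks. Introns held 283 (55.3%), against 40.8% and 54.6%, intergenic DNA 165 (32.2%), against 23.3% and 31.5%, and exons 25 (4.88%), against 5.55% and 5.48%. The regions listed only in shControl and those listed only in shLOXL2 were thus placed much alike, and both differed from the shared regions mainly in promoters. Below the 30th score percentile, where most of the regions lay, promoters made up 8.93% of them and 25.3% of the shared regions, so the shares also stood apart among weak peaks. Shared regions that met a peak in 1 shLOXL2 list held promoters in 12.6%, those with 2 lists in 16.4% and those with 3 in 32.0%.

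**Figure D2:**
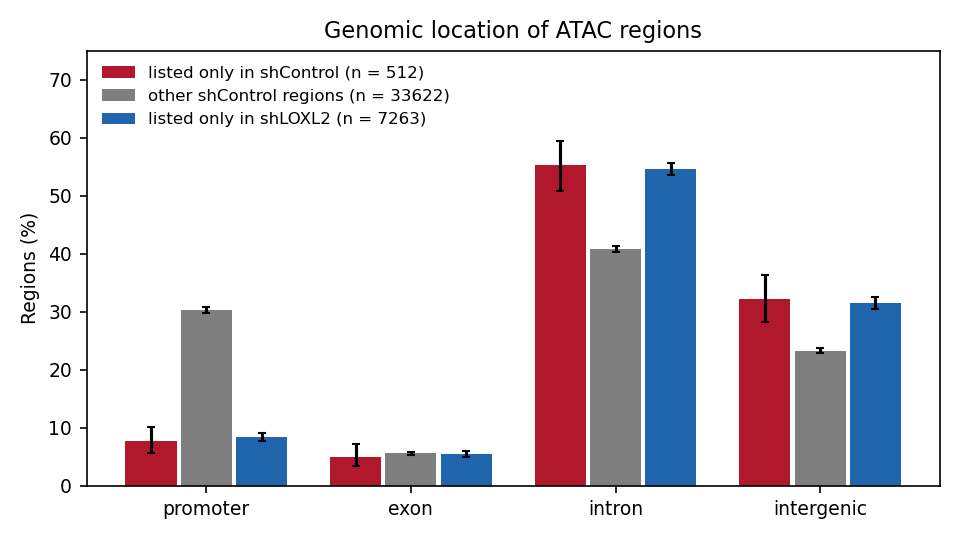
Share of regions (percent, vertical axis, with 95% Wilson intervals) in promoters, exons, introns and intergenic DNA for regions listed only in shControl, shared regions and regions listed only in shLOXL2. Promoters held 7.62%, 30.3% and 8.37% of the 3 sets.

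The regions also lay far from protein-coding starts, although 254 of the 512 lay inside a protein-coding gene. The nearest protein-coding start was a median of 63.8 kb away (quartiles 22.5 and 170 kb), against 29.6 kb for the shared regions and 46.1 kb for the mirror set. Over 100 kb separated 196 (38.3%) from the nearest such start, against 25.8% and 31.8%. The farthest, chr14:84014535-84014858, lay 1981630 bp from FLRT2. They were spread over every autosome and chromosome X, with 53 on chromosome 6 (2.03% of its regions), 52 on chromosome 1 and 51 on chromosome 2, and 4 on the gene-rich chromosome 19 (0.481%). The densest window of 5 Mb, chromosome 4 from 155 to 160 Mb, held 7 beside 77 shared regions, among them the 3 nearest to GLRB. In 6 cases neighbouring regions lay 50 kb apart or less.

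The DNA of the regions was less rich in G and C than that of the shared regions, at a median of 44.7% of the 300 central bases against 50.7%, with 45.7% in the mirror set. Outside promoters the medians were 44.3%, 46.3% and 45.0%. Sequence words were counted on both strands of those 300 bases, as written here. No word contains another, though matches to different words may overlap. Outside promoters, where base composition was closest, the AP-1 word TGANTCA was present in 126 of 473 regions (26.6%, 95% Wilson interval 22.9 to 30.8). It was present in 47.5% (46.9 to 48.1) of the shared regions and 55.0% (53.8 to 56.2) of the mirror set. All intervals on word shares, here and below, hold counting error over regions only and not the spread between libraries. The TEAD word GGAATG ran in the other direction, with 31.7% (27.7 to 36.0) of the regions, 25.8% (25.3 to 26.4) of the shared ones and 21% (20 to 22) of the mirror set. In windows of the same length 3000 bases away, the AP-1 word was present in 9.73%, 9.44% and 9.29% and the TEAD word in 16.9%, 16.3% and 15.7% of the 3 sets. Both words were therefore commoner within each set than beside it, and the surroundings of the 3 sets had similar shares. Of the 512, 151 (29.5%) were narrower than the 300 bases searched, against 7.07% of the shared regions and 40.1% of the mirror set. In regions of 300 bases or more outside promoters, the AP-1 word was present in 24.9%, 46.3% and 51.9% and the TEAD word in 30.7%, 25.7% and 20% of the 3 sets, in the same order as before. Both words occurred together in 43 of the 512 and neither in 270.

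The AP-1 difference was also present among regions of like score. Outside promoters and below the 10th percentile, 18.4% (11.9 to 27.2) of 98 regions listed only in shControl held the AP-1 word, against 36.3% (32.1 to 40.7) of the shared ones. Between the 10th and 20th percentile the shares were 26.5% and 38.5%, between the 20th and 30th 29.6% and 42.0%, and between the 30th and 50th 29.0% and 45.6%. Above the 50th only 16 regions remained, with 43.8% (23.1 to 66.8) against 51.5%, where the interval holds both values. The TEAD share was near that of the shared regions below the 10th percentile, at 22.4% against 21.9%, and above it between the 30th and 50th, at 39% (30 to 48.8) against 25.0%. Shared regions with a peak in 1, 2 or 3 shLOXL2 lists held the AP-1 word in 34.3%, 38.5% and 48.9% and the TEAD word in 30%, 27.0% and 25.6%, so both shares shifted stepwise with the number of shLOXL2 lists.

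The regions found in all 3 control libraries held the TEAD word most often. Of the 49 outside promoters, 23 (46.9%, 33.7 to 60.6) held it and 9 (18.4%, 9.98 to 31.4) held the AP-1 word. Of the 424 found in 2 libraries, 30% held the TEAD word and 27.6% the AP-1 word. Shared regions found in all 3 control libraries held them in 26.3% and 48.7%. The interval of the TEAD share in the 49 lies close to that of the 424 (25.8 to 34.5), with a slight overlap.

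**Figure D3:**
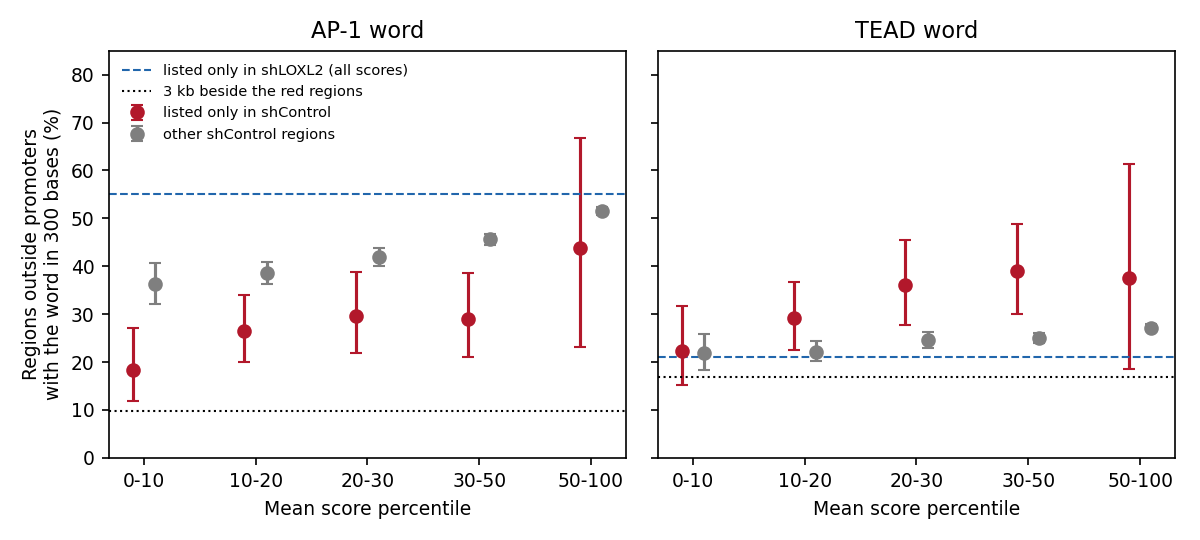
Share of regions outside promoters (percent, vertical axes, with 95% Wilson intervals) whose central 300 bases held the AP-1 word or the TEAD word. Regions listed only in shControl and shared regions are shown by range of mean score percentile (horizontal axis). The dashed line is the share in regions listed only in shLOXL2, at all scores. The dotted line is the share in windows 3000 bases from the regions listed only in shControl. The AP-1 share of the regions listed only in shControl is below that of the shared regions in each range, and the TEAD share is above it from the 10th percentile up. Above the 50th only 16 regions listed only in shControl remain, and the intervals of both words hold the shared value.

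Outside promoters, some other words had like shares and some did not. The RUNX word TGTGGTT was present in 12.9% of the regions and 12.7% of the shared ones, the CCAAT box in 34.0% and 32.7%, and the E2-box CAGGTG, a word of Snail and ZEB factors, in 17.3% and 17.1%. In the mirror set these 3 words were present in 10.4%, 32.4% and 21.4%. The GC box GGGCGG was present in 7.61% of the regions, 12.8% of the shared ones and 7.99% of the mirror set. The forkhead word TGTTTAC was present in 4.02%, 6.34% and 9.35%, the same order as the AP-1 word. The core of the CTCF word, AGGGGGC, was present in 7.82%, 5.58% and 4.87%, the same order as the TEAD word. The long words CRE, ETS, NF-kB, NRF1, E2F and C/EBP were each present in 5 or fewer of the 512 regions, too few to compare.

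RNA-seq gave an independent readout of the genes beside the regions. The libraries held 40254464 to 49375803 counts, and 15602 of 57820 genes passed the filter on low counts. Of these, edgeR called 42.9% changed between shLOXL2 and shControl, 21.6% higher and 21.3% lower in shLOXL2 (adjusted p below 0.05). LOXL2 itself stood at 445, 413 and 379 CPM (counts scaled to the size of the library) in shControl and 132, 139 and 99.1 in shLOXL2, a log2 fold change of -1.74 (SE 0.11, adjusted p = 7.67e-07). Most of the line's markers fitted its label. VIM stood at 3750 to 4110 CPM, CD44 at 788 to 950, EGFR at 317 to 386 and ZEB1 at 103 to 118. ESR1, PGR, CDH1 and KRT5 were each below 0.5 CPM in all 6 libraries. ERBB2, planned as a low marker, stood at 89.9 to 97.0, near ZEB1. SNAI2 ranged from 20.9 to 60.6, with 1492, 1933 and 2475 counts in shControl and 843, 918 and 969 in shLOXL2. Of markers of other cells, PTPRC (leukocytes) reached 0.527 CPM, COL1A2 0.67 and LUM (fibroblasts) 0.416. In bulk RNA, fewer expressing cells and less RNA per cell cannot be told apart.

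The genes nearest to the regions changed in both directions. The 512 regions had 485 distinct nearest protein-coding genes, of which 354 were tested and 131 were not, 7 of those for want of a count row. Of the 354, 106 (29.9%) were higher and 96 (27.1%) lower in shLOXL2, together 57.1%. All tested protein-coding genes (12803) were higher in 24.5% and lower in 23.8%, together 48.3%. The median log2 fold change of the 354 was 0.0084, against -0.0032 for all tested genes and -0.0025 for the tested protein-coding ones, and their quartiles were -0.27 and 0.256, against -0.209 and 0.213. The median was thus near 0 as it was for all genes. The shares called were somewhat above those of all tested protein-coding genes on both sides, and these differences were not tested. The nearest genes, all protein-coding, were also better expressed, at a median of 5.19 log2 CPM. The median of all tested genes, of which 82.1% were protein-coding, was 4.45. The part of expression level in the number of calls was not tested.

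Calls went both ways at each distance. Of the nearest genes within 10 kb of their region, 54 were tested, 15 higher and 15 lower, with a median of 0.0332. Between 10 and 100 kb, 167 were tested, 55 higher and 45 lower (median 0.0232), and beyond 100 kb 133 were tested, 36 higher and 36 lower (median -0.0157). For the 52 regions found in all 3 control libraries, 39 nearest genes were tested, 11 higher and 11 lower. Genes nearest to the shared regions (10117 tested) were higher in 24.8% and lower in 24.8%, and genes nearest to the mirror set (3576 tested) were higher in 29.8% and lower in 22.6%. These sets share genes: 249 of the 485 were also nearest to a region listed only in shLOXL2, and of those 194 were tested, 63 higher and 49 lower. Of the 236 that were not, 160 were tested, 43 higher and 47 lower.

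**Figure D4:**
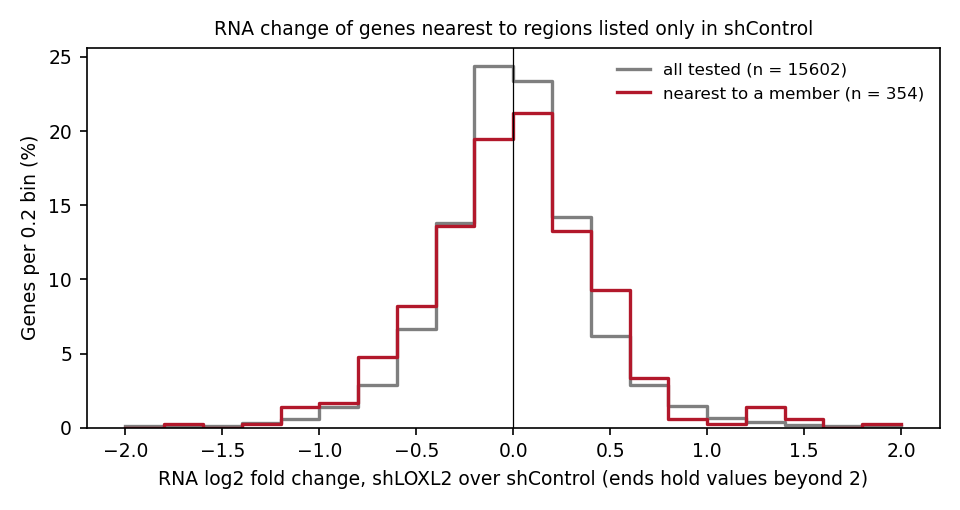
Distribution of log2 fold changes (shLOXL2 over shControl, horizontal axis; the outermost bins hold all values beyond) for the 354 tested genes nearest to a region listed only in shControl and for all 15602 tested genes, as a share of each set (percent, vertical axis). Both sets centre near 0, at medians of 0.0084 and -0.0032, and the nearest genes spread somewhat wider.

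Genes whose start lay within 1 kb of a region give the closest link between the assays. Of the 29 such genes tested, 9 were lower in shLOXL2, 8 were higher and 12 did not pass the threshold, beside 21.3% and 21.6% of all tested genes. A further 17 were not tested, for low counts or for want of a count row. Among them was NPHS1, the nephrin gene that shares a region with APLP1. Some regions lay at the starts of a pair of genes, such as ESCO2 and CCDC25, SBF2 and ADM, ZNF106 and SNAP23, HES2 and ESPN, and APLP1 and NPHS1.

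The promoter genes that fell included FSTL1, ADM and APLP1. FSTL1, which encodes the secreted glycoprotein follistatin-like 1, stood at 249, 243 and 258 CPM in shControl and 179.6, 170.2 and 154 in shLOXL2 (log2 fold change -0.57, SE 0.06, adjusted p = 1.57e-05). Its region, chr3:120169199-120169704, scored 45 and 37 in replicates 1 and 3, and a shLOXL2 peak lay 43 bp away. ADM, which encodes the vasodilator peptide adrenomedullin, stood at 40.3, 38.6 and 49 CPM against 30, 29.2 and 27.8 (-0.56, SE 0.08, adjusted p = 0.00028), with a region across its start in all 3 libraries. The groups did not overlap for either gene, and the highest ADM value was shControl replicate 3. APLP1, an amyloid precursor-like protein gene, stood at 6.99, 6.48 and 6.37 CPM against 3.51, 3.63 and 3.34 (-0.92, SE 0.10, adjusted p = 2.9e-05). SBF2, which shares the ADM region, stood at 96.4, 93.6 and 90.4 CPM against 99.3, 107 and 94.1 and did not pass the threshold (adjusted p = 0.168).

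The largest fall among promoter genes was that of a gene with few reads. NLRP10, a gene of the NOD-like receptor family, had 31, 33 and 40 counts in shControl and 9, 8 and 14 in shLOXL2 (log2 fold change -1.67, SE 0.28, adjusted p = 0.000657), with a region 21 bp upstream of its start and a shLOXL2 peak 75 bp from it. FRMPD3, a gene for a FERM and PDZ domain protein, had 58, 87 and 64 counts against 41, 34 and 23 (-1.0, SE 0.23, adjusted p = 0.00431). Both stayed below 2 CPM in every library, and their groups did not overlap. ESCO2, the acetyltransferase that helps sister chromatids cohere, fell by 0.61, DNM1, a dynamin gene, by 0.32, TTC28 by 0.31 and CCDC25, which shares the ESCO2 region, by 0.23 on the log2 scale. ESCO2 stood at 32.3, 31.7 and 37.5 CPM in shControl and 23.1, 23.8 and 19.4 in shLOXL2.

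Other promoter genes rose although their region was absent from the shLOXL2 lists. HES2, a basic helix-loop-helix repressor gene, stood at 6.14, 5.02 and 4.99 CPM in shControl and 9.40, 9.55 and 10.5 in shLOXL2 (log2 fold change 0.87, SE 0.10, adjusted p = 5.89e-05), with a region of 1147 bp in all 3 control libraries. COL6A1, which encodes a chain of the microfibrillar collagen VI, stood at 185, 172 and 152 CPM against 205, 220.5 and 214 (0.33, SE 0.07, adjusted p = 0.00186). Its region, inside the window printed above and holding 1 AP-1 match, lies 220 bp upstream of the start, scored 34 and 50 in replicates 2 and 3 and had a shLOXL2 peak 216 bp away. MPZL3, a gene for an immunoglobulin-like membrane protein, rose by 0.77, EPB41L4B by 0.49, ZNF319 by 0.44, SNAP23, a membrane fusion protein gene, by 0.20, BIN3 by 0.23 and KIF1B, a kinesin motor gene, by 0.17 on the log2 scale. The calls of BIN3 and KIF1B were lost when single libraries were left out: adjusted p was 0.134 for BIN3 without shControl replicate 2, 0.0711 without shLOXL2 replicate 2 and 0.128 without shLOXL2 replicate 3. For KIF1B it was 0.0879 without shControl replicate 1, 0.0639 without shControl replicate 2, 0.11 without shLOXL2 replicate 1 and 0.0708 without shLOXL2 replicate 2. With the replicate number as a block, BIN3 had an adjusted p of 0.0593 and KIF1B of 0.0566.

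**Figure D5:**
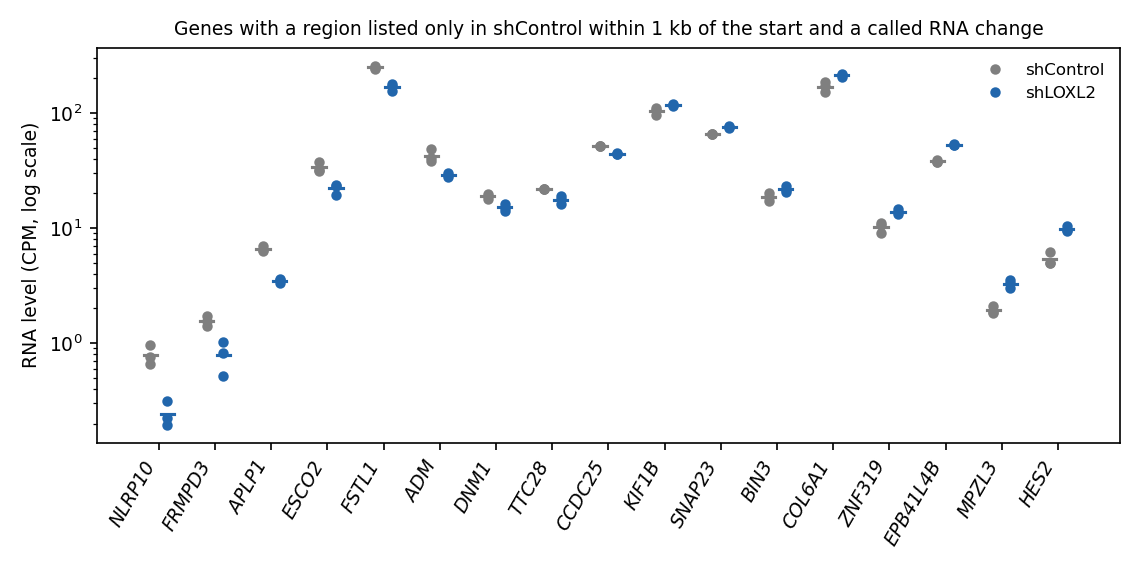
RNA level (CPM, vertical axis, log scale) of each shControl and shLOXL2 library, with group means as short lines. The genes (horizontal axis) are those with a called change and a start within 1 kb of a region listed only in shControl. The 9 lower and 8 higher genes are ordered by log2 fold change, from NLRP10 at -1.67 to HES2 at 0.87.

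Within 100 kb of a region, 221 nearest genes were tested, 70 higher and 60 lower, beside 24.5% and 23.8% of all tested protein-coding genes. Of the called ones, 123 had groups that did not overlap and a mean log2 CPM of at least 1, 56 lower and 67 higher. The share of all tested genes that meet these conditions was not counted, so the 123 serve only as the pool for the genes named next. The largest fall was that of EDN1. It stood at 34.8, 37.3 and 71.3 CPM in shControl and 18.8, 19.8 and 19.0 in shLOXL2, a log2 fold change of -1.31 (SE 0.22, adjusted p = 0.000574). The groups did not overlap, and shControl replicate 3 stood apart above the other control libraries. Without that library the fold change was -0.91, smaller but still past the threshold. Its region is printed above with its 2 TEAD matches, and 15 shared regions and 3 listed only in shLOXL2 were also nearest to EDN1.

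The other large falls came from varied functions. FERMT2, which encodes kindlin-2, an activator of integrins, stood at 197, 196 and 218 CPM against 124, 123 and 116.5 (log2 fold change -0.75, SE 0.05, adjusted p = 1.73e-06), with a region 8460 bp upstream of its start. PRIM2, the large subunit of DNA primase, stood at 74.4, 70.6 and 76.5 CPM against 37.8, 36.5 and 33.6 (-1.04, SE 0.06, adjusted p = 4.12e-07), and its value is uncertain because the gene has near-identical copies. All 6 libraries separated by group for both genes. SERTAD4 fell by 0.93, EPB41L4A by 0.75, SCOC by 0.72 and MARK1, a microtubule affinity kinase gene, by 0.71 on the log2 scale, and APLP1 completed the 8 largest. The SERTAD4 region was found in all 3 control libraries, 30624 bp upstream of the start.

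The largest rises were of similar size. MAL2, which encodes a transcytosis protein of epithelial cells, stood at 11.4, 11.5 and 11.0 CPM in shControl and 32.5, 28.0 and 29.2 in shLOXL2 (log2 fold change 1.41, SE 0.07, adjusted p = 3.08e-07). Its region lies in its own intron, and 4 regions listed only in shLOXL2 were also nearest to MAL2. WNT9A, a secreted Wnt ligand gene, stood at 6.99, 7.45 and 6.16 CPM against 16.5, 16.1 and 17.3 (1.27, SE 0.09, adjusted p = 1.55e-06). Its region, chr1:228141558-228141849, lies 5925 bp upstream of the start and was one of the stronger ones, at a mean score percentile of 54.2. F13A1, which encodes the A chain of coagulation factor XIII, stood at 3.45, 2.85 and 3.47 CPM against 7.87, 7.92 and 7.67 (1.27, SE 0.11, adjusted p = 5.23e-06), with an intronic region holding 2 TEAD matches. In all 3 genes each shLOXL2 library was above each control library. ICA1 rose by 0.75, TTC7A by 0.73 and COX7C, a subunit gene of cytochrome c oxidase, by 0.72 on the log2 scale, after HES2 and MPZL3.

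GLRB and TWIST1 were each nearest to 3 regions. GLRB, the beta subunit of the glycine receptor, had regions 32700 and 23268 bp upstream of its start and 1 in an intron, and no region listed only in shLOXL2 was nearest to it. It stood at 24.1, 23.1 and 25.0 CPM in shControl and 19.9, 19.6 and 20.2 in shLOXL2 (log2 fold change -0.28, SE 0.06, adjusted p = 0.00361), without overlap between the groups. TWIST1, an inducer of the epithelial to mesenchymal transition, had 2 regions in introns of HDAC9 and 1 beyond it, at 318640, 123149 and 107493 bp from its start. It had 0, 1 and 0 counts in shControl and 0, 0 and 0 in shLOXL2 and could not be tested.

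Of the 25 genes nearest to 2 or more regions, 17 were tested, 5 lower and 4 higher in shLOXL2, numbers near the 23.8% and 24.5% of all tested protein-coding genes. TGFBR2, which encodes the type II receptor for transforming growth factor beta, stood at 385, 373 and 336 CPM against 252, 244 and 228 (log2 fold change -0.60, SE 0.06, adjusted p = 1.54e-05). Its regions lie 113526 and 301304 bp upstream of the start, in a neighbourhood of 20 shared regions and 5 listed only in shLOXL2. The other lower genes, besides GLRB, were PLXNA4, a semaphorin receptor gene (-0.89), ANGPT1, the TIE2 ligand angiopoietin-1 (-0.34, adjusted p = 0.0477), and NDUFA4 (-0.32). The higher ones were JARID2, an accessory subunit of Polycomb repressive complex 2 (0.66), FLRT2 (0.43), TGIF1 (0.42, adjusted p = 0.0408) and PRKX (0.19, adjusted p = 0.0241). TGIF1 had 3050, 3453 and 1774 counts in shControl and 3117, 3505 and 3789 in shLOXL2, and without the low shControl replicate 3 its log2 fold change was 0.21. Its call was lost without shLOXL2 replicate 1, 2 or 3 and with DESeq2 (adjusted p 0.0632, 0.117, 0.113 and 0.134). The ANGPT1 call was lost without any single library other than shControl replicate 3 (adjusted p 0.0582 to 0.174), with the replicate block (0.0536) and with DESeq2 (0.0871). The PRKX call was lost without the same libraries (0.0539 to 0.102), with the replicate block (0.059) and with no filter on low counts (0.0664). JARID2 had 3046, 3675 and 2959 counts in shControl and 4527, 4743 and 5285 in shLOXL2, with both regions in its introns. Genes of 2 regions were named after their values had been seen. A pair of regions also lay in introns of ESR1, the estrogen receptor gene, which had at most 1 count in any library, and a pair was nearest to PTPRC, which had 12 to 26 counts, so open regions stood in and near genes with hardly any RNA.

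Of 20175 annotated protein-coding genes, 2.4% were nearest to a region listed only in shControl and 63.7% to a shared one. None of 42 S-phase and none of 52 G2/M genes was nearest to a region listed only in shControl, which is near that share for lists of this size, and 34 and 45 of them were nearest to shared regions. Of the 41 S-phase genes tested, 40 were lower in shLOXL2 and none higher, and of the 52 G2/M genes 46 were lower and 1 higher, beside 21.3% lower and 21.6% higher among all tested genes. Of 32 immediate-early and AP-1 genes, 1 was nearest to such a region, KLF4, a zinc finger factor gene, with its region 660300 bp upstream. KLF4 stood at 57.2, 53.3 and 101.2 CPM in shControl and 76.5, 71.5 and 71.8 in shLOXL2 and did not pass the threshold (adjusted p = 0.83), and without shControl replicate 3, the high library here as for EDN1, it was higher at 0.41 (adjusted p = 8.61e-06). Of the 31 genes of that list tested, 4 were higher and 11 lower, beside 21.6% and 21.3% of all tested genes.

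Of 57 mesenchymal, matrix and adhesion genes, 7 were nearest to a region listed only in shControl and 51 to a shared one, beside the 2.4% and 63.7% of all protein-coding genes. Besides COL6A1, TGFBR2 and TWIST1 they were CDH2, COL1A2, LAMA3 and ID2. COL1A2, a fibrillar collagen gene, had 27, 23 and 25 counts in shControl and 14, 13 and 12 in shLOXL2 (log2 fold change -0.87, SE 0.27, adjusted p = 0.0222). That call was lost without shControl replicate 1 (adjusted p = 0.0735), shLOXL2 replicate 2 (0.0573) or shLOXL2 replicate 3 (0.0822), and with DESeq2 (0.111). CDH2, the N-cadherin gene, had 23, 21 and 34 counts against 11, 20 and 19 (adjusted p = 0.172), and LAMA3 and ID2 gave adjusted p of 0.157 and 0.147, with groups that overlapped for all 3 genes. Of the 53 tested genes of the list, 19 were higher and 13 lower, beside 21.6% and 21.3% of all tested genes. None of the 5 lysyl oxidase family genes was nearest to a region listed only in shControl. All 5 were tested, 3 lower and none higher, beside 21.3% and 21.6% of all tested genes. The 3 include LOXL2, the target of the hairpin.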

How the data were processed

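The ATAC-seq files hold the peaks of single libraries, each with a score, as the authors deposited them. The lowest score is 20 in each list, and the meaning of the score is not given in the sources used here. The submitters' processing notes name Trim Galore 0.6.5, Bowtie2 2.4.2, SAMtools 1.11, Picard 2.23.8, MACS2 2.2.7.1 and DiffBind 3.0.7 for ATAC-seq without their settings, and hg19 as the build. Neither a Tn5 offset nor the filter on peaks is given there. ATAC-seq read depth is unknown. The RNA-seq files are the authors' deposited tables of read counts, 1 per library, not normalized. The submitters' processing notes name STAR 2.7.6a and GRCh37.p13, and the strand setting is not given, so reads of overlapping genes (39 of 50 named genes overlap another annotated gene, 34 on the other strand) may be pooled.

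Positions, gene starts and sequences come from GRCh37 with GENCODE release 44 lifted to it, and no peak ran past the end of a chromosome. Gene identifiers were matched for 96.1% of the count rows. Location was assigned in the order promoter (within 1 kb of a start), exon, intron, intergenic, the last 3 by the midpoint. Gene counts were tested with edgeR 4.0.16 (filterByExpr, TMM, glmQLFit and glmQLFTest) in R 4.3.3 over all 6 libraries, with Benjamini-Hochberg adjustment over 15602 genes and a threshold of 0.05. Given CPM use the TMM-scaled library sizes. On counts drawn for 15436 genes of this comparison with 200 of them changed 2-fold, 87.5% of those were called and 3.31% of the calls were other genes. Every pair of replicate RNA libraries differed by more than sampling noise (mean chi-square per gene 5.26 to 21.5). The highest values, 21.5 and 19.1, were those of shControl replicate 3 with replicates 1 and 2, which gave 5.42 between them. The shLOXL2 pairs gave 5.26 to 11.1. Same-numbered libraries did not deviate together (correlations -0.0496, -0.0643 and -0.105), so replicate numbers were not used as pairs. Python 3.11.15 was used for regions and words.

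The regions, gene lists and words were chosen with earlier results of these data known. Genes named are LOXL2, tested genes with a start within 1 kb of a region, the 8 largest rises and 8 largest falls among called nearest genes (within 100 kb, separate groups, mean log2 CPM not under 1), genes nearest to 3 regions, and genes of the lists nearest to a region. Genes nearest to 2 regions were added after their values were seen. Alternatives tried were other overlap, merging and score rules, equal numbers of peaks, a 3 kb promoter window, other ways to take the nearest gene, RLE scaling, no filter, a replicate block, DESeq2 1.42.0, limma-voom (limma 3.58.1) and each library left out. The ChIP-seq samples were not analysed here.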

Additional observations from a re-analysis of the deposited data

How the results depend on the processing

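The number of regions listed only in shControl was 512 as reported, 1250 when an overlap had to cover 50% of a region, 52 when a peak of all 3 shControl lists was required and 1946 with an equal number of peaks per list, and leaving out single libraries gave 84 (shControl replicate 2) to 1033 (shLOXL2 replicate 3). It was 479 with shLOXL2 peaks widened by 500 bp, 519 with peaks up to 100 bp apart merged and 375 with peaks above the median score. The promoter share, 7.62% as reported, was 11.8% with 50% cover, 22.7% with peaks above the median score, 27.4% with an equal number of peaks and 10.4% with a 3 kb window, and 6.34% to 10.6% with single libraries left out. Higher and lower nearest genes numbered 106 and 96 of 354 tested as reported, and 70 and 60 of 221 within 100 kb. They numbered 11 and 11 of 39 for regions of all 3 lists, and 372 and 351 of 1355 with an equal number of peaks. Leaving out single libraries gave 86 to 119 higher and 81 to 103 lower, of 355 or 356 tested. All tested genes were then higher in 17.1% to 22.4% and lower in 17.1% to 22.0%, against 21.6% and 21.3% as reported. The median log2 fold change of the nearest genes, 0.0084, was 0.044 for regions of all 3 lists and -0.0092 with an equal number of peaks. It was -0.0069 with the nearest start among all tested genes, and -0.0215 to 0.0246 with single libraries left out, so its sign is not settled. With the replicate block, which shares only a number between groups, 93 nearest genes were higher and 88 lower, with a median of 0.0089. DESeq2 gave 99 and 91, and RLE scaling and limma-voom each 105 and 96, of 354 tested as with the block. No filter on low counts gave 101 and 100 of 429 tested. The shares of all tested genes moved too. They were higher in 18.8% and lower in 18.3% with the block, and in 20% and 19.5% with DESeq2. RLE scaling gave 21.6% and 21.2%, limma-voom 21.7% and 21.1%, and no filter 11.2% and 11.3% of 30390 tested. Of 627 recalculations for named genes, those nearest to 2 regions and called included, 587 kept direction and call, 31 lost the call, 4 gained it and 5 changed sign, all 5 in genes not called: with single libraries left out, DVL2 (0.0266) ran from -0.0116 to 0.0513, KLF4 (0.0573) from -0.1121 to 0.4083 and TRIM13 (-0.0295) from -0.0749 to 0.0017. Why these values moved was not tested. The AP-1 and TEAD shares outside promoters, 26.6% and 31.7%, were 24.9% and 30.7% in regions of 300 bases or more, an alternative chosen after seeing the data. Word shares were not counted for the sets made with an equal number of peaks, with peaks above the median score or with a library left out. Whether the word shares hold in those sets is therefore unknown. ATAC-seq depth is unknown, so a region missing from a list may lie under that list's threshold, and near the lowest scores presence or absence cannot be told from detection.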
